A study of Mus musculus with 6 samples.

Results

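The Serpina genes encode serpins, a family of mostly secreted serine protease inhibitors and hormone carriers. The genes described are Serpina4-ps1, Serpina3g, Serpina3k, Serpina3m, Serpina3n, Serpina6, Serpina7, Serpina10, Serpina11 and Serpina12, taken with every probe set that the array's gene table assigns to them. Of these 10 genes, 7 had a named probe set, and together they had 10 probe sets of the 45101 on the array. No probe set was named for Serpina3g, Serpina3k or Serpina3m in the gene table used, so these 3 are not analysed here. Serpina4-ps1 had 3 probe sets, Serpina12 had 2 and the other 5 genes had 1 each. None of the 10 is assigned to a second gene in that table.

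RNA was measured in whole liver of male mice aged 18 weeks, with 3 arrays of the New Zealand Obese strain (NZO) and 3 of C57BL/KS (BKS), both fed standard chow. The titles mark the BKS samples as wild type (wt), and the NZO titles give no genotype. NZO is an inbred strain that becomes obese and diabetic without a special diet, and BKS was the control strain. The 2 strains differ throughout the genome, so strain background and the obese, diabetic state cannot be told apart in this design. The values are log2 expression after RMA. This method corrects background, is meant to equalise the arrays and sums the probes of each probe set into 1 value. The deposited values were nevertheless not equal between arrays, with array medians from 5.08 to 5.22. A difference of 1 on this scale is a change of 2 times in signal. Every difference is NZO minus BKS.

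Serpins trap a protease by offering it a flexible loop as bait and changing shape when the loop is cut. Some family members have lost this activity and carry hormones in blood instead. The liver is the main source of most circulating Serpina proteins, and many of them belong to the acute phase response to inflammation. In mice the Serpina1 and Serpina3 genes have multiplied into clusters on chromosome 12, whereas Serpina7 lies on the X chromosome. In bulk tissue, fewer cells of a type and less RNA per cell cannot be told apart.

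The genes were chosen by family name with the NZO minus BKS differences of these data already known, so their own differences are given as a description without a test. The strains separated most at Serpina4-ps1, a transcribed pseudogene related to the human kallistatin gene SERPINA4. The signal of all 3 of its probe sets was 7.19 to 9.90 times lower in NZO. Whether the strains differ in sequence under these probes was not tested, so a lower signal need not be less RNA. Serpina11 was 2.42 times lower in NZO. Serpina10 was 1.55 times lower, with almost no gap between the strains. The values of the hormone carriers Serpina6 and Serpina7, of Serpina3n and of Serpina12 overlapped between the strains.

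Promoter sequence was at hand for 5 of the 10 genes, Serpina11, Serpina12, Serpina3g, Serpina3n and Serpina7. The 4 of them with array values are printed to set Serpina11, which was lower in NZO, beside Serpina12, Serpina3n and Serpina7, which overlapped. Each sequence is the 250 bases before an annotated start of the gene from RefSeq (GRCm38.p6), read 5′ to 3′ on the strand of the gene. Serpina11 and Serpina7 each have 2 annotated starts in that table, and the window of the start listed first is printed. Capitals mark matches to the motifs named after the sequences.

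Serpina11, chr12:103989958-103990207, minus strand: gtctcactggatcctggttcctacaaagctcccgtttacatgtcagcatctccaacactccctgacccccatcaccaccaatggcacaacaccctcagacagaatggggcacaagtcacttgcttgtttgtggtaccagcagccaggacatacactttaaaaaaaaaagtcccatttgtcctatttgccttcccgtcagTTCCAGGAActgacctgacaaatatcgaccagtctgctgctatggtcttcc
Serpina12, chr12:104044444-104044693, minus strand: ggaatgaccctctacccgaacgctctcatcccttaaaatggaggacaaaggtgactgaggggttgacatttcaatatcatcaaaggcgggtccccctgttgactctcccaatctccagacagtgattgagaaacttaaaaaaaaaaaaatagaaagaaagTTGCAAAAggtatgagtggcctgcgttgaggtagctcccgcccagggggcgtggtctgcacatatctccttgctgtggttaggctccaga
Serpina3n, chr12:104406458-104406707, plus strand: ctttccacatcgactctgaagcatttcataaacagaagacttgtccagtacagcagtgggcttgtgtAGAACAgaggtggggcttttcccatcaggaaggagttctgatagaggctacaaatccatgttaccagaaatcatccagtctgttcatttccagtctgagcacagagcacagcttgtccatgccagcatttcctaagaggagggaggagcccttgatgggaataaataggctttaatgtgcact
Serpina7, chrX:139085237-139085486, minus strand: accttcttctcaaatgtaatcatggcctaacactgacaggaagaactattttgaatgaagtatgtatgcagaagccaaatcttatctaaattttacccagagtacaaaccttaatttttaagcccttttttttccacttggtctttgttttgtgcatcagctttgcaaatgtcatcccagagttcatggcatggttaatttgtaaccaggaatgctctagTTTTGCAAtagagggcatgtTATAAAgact

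The motifs searched on both strands were the STAT palindrome TTCNNNGAA, the glucocorticoid receptor element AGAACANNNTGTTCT with its single arm AGAACA, the HNF1 site GTTAATNATTAAC and the C/EBP core TTGCNNAA, and the TATA box TATAAA was searched on the sense strand. This single arm is contained in the full element, and the other motifs do not contain each other. The Serpina11 window held 1 STAT palindrome, from -51 to -43 relative to the printed start and from -65 to -57 relative to the other, a motif present in 7.02% of the 32851 windows in the table. Serpina12 held 1 C/EBP core (9.56% of windows), Serpina3n held 1 single arm of the glucocorticoid element (16.1% of windows), and Serpina7 held 1 C/EBP core on the opposite strand and 1 TATA box (7.59% of windows). That TATA box lay from -10 to -5 relative to the printed start of Serpina7 and from -27 to -22 relative to its other start. Serpina3g, which has no array values here, also held 1 STAT palindrome. None of the member windows held the full glucocorticoid element or the HNF1 site, which were each present in 0.00913% of windows. These matches describe letters in the reference window and not binding. The windows were not read from NZO or BKS mice, so they cannot show a difference between the strains.

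The arrays themselves differed in ways that touch these genes. The array titled number 1 in each strain, which is replicate 1 here, had weaker spiked-in hybridization controls, at 8.17 in NZO and 9.29 in BKS, against 10.2 to 11.5 on the other 4 arrays. NZO replicate 1 was also dim over strongly expressed genes, so RMA had not made the deposited arrays equal there. Over the 698 probe sets with a mean of at least 12, its median shift was -1.01 from the mean of NZO replicates 2 and 3, whereas BKS replicate 1 was shifted by -0.12 within its strain. In the bins with means from 8 to 11, the median shifts were -0.36 to -0.43 for BKS replicate 1 and -0.60 to -1.02 for NZO replicate 1. The labels name no batch, and these 2 arrays share only the number in their titles. A fit with them as a block was chosen with earlier results of these data known. For each probe set it takes out 1 shift common to both arrays, whereas their median shifts were unlike. Calls made with the block therefore show only how the results depend on the model. Liver identity was clear on every array, with the mean of 9 measured hepatocyte markers at 12.99, 14.01 and 14.00 in NZO and 13.89, 13.97 and 13.96 in BKS, again lowest on NZO replicate 1. The beta-actin 3′ minus 5′ signal, which grows with truncated RNA or cDNA, read 1.29, 1.34 and 1.39 in NZO and 1.72, 2.33 and 1.92 in BKS, so it moved with strain. Its part in the differences below was not tested.

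Serpina4-ps1 was measured by 3 probe sets that gave like values. Probe set 1448092_x_at, of a type that may also bind related sequences, read 8.37, 7.47 and 7.07 in NZO livers, against 11.57, 10.91 and 10.35 in BKS livers. The highest NZO array lay 1.99 below the lowest BKS array. The strain means were 7.64 ± 0.66 in NZO and 10.94 ± 0.61 in BKS (SD, n = 3 each), a difference of -3.31 with a standard error of 0.52.

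Probe set 1444297_at of Serpina4-ps1 read 7.66, 6.43 and 5.87 in NZO livers and 10.35, 9.66 and 9.22 in BKS livers. Its means were 6.65 ± 0.92 in NZO and 9.75 ± 0.57 in BKS (SD, n = 3 each), a difference of -3.09 with a standard error of 0.62. Probe set 1444296_a_at read 8.02, 6.29 and 7.02 in NZO livers and 10.69, 9.87 and 9.31 in BKS livers, a difference of -2.85 with a standard error of 0.64. For all 3 probe sets the strains did not overlap, and the gap between them was larger than the SD within either strain. Both replicate 1 arrays read above the mean of the other arrays of their own strain, by 1.10 to 1.51 in NZO and by 0.91 to 1.10 in BKS. At these levels NZO replicate 1 was otherwise dim, with a median shift of -0.52 to -0.74 over the 4560 to 6520 probe sets of like level. BKS replicate 1 was dim there too, with median shifts of -0.36 and -0.43 in the bins with means from 8 to 10. With both replicate 1 arrays left out the differences were -3.36, -3.29 and -2.93, and between the replicate 1 arrays alone they were -3.20, -2.69 and -2.67, in the order in which the probe sets are named here.

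**Figure D1:**
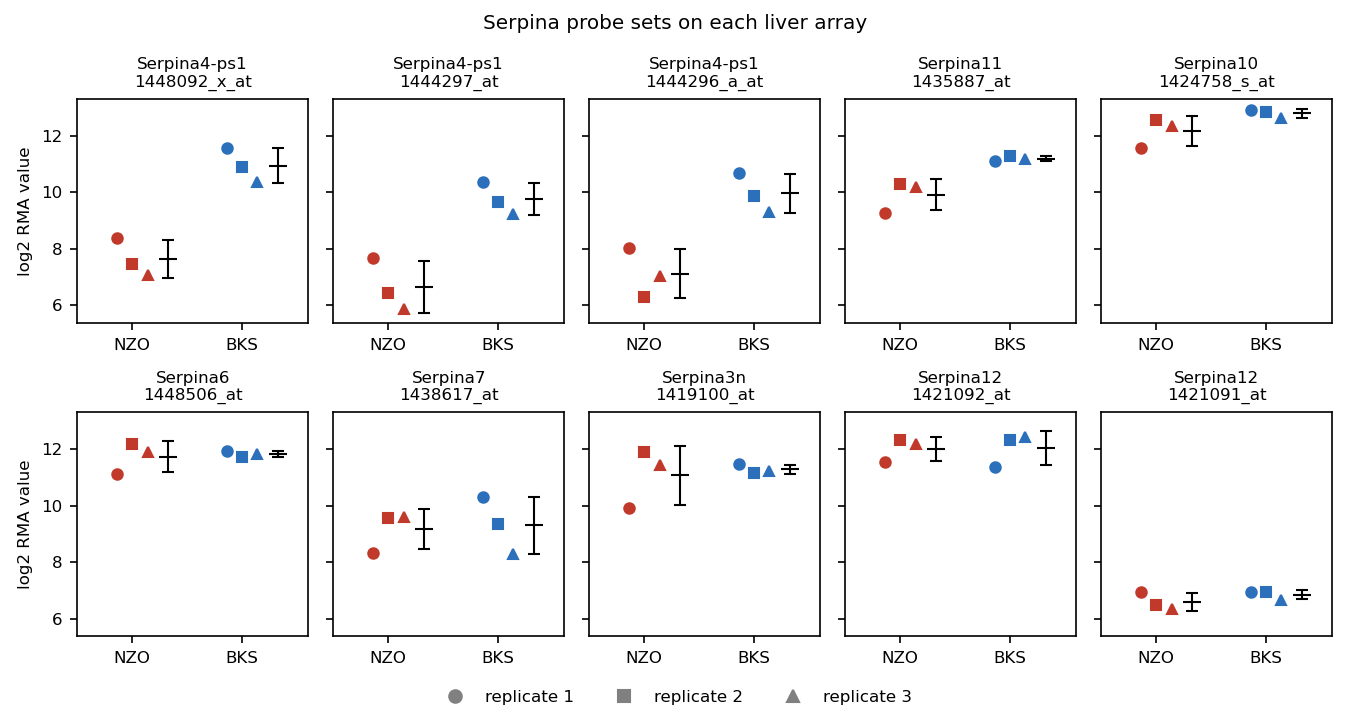
Log2 RMA value (vertical axis) of each of the 10 Serpina probe sets on the 3 NZO and 3 BKS arrays. Symbols mark replicates 1 to 3, and the bar beside each group is its mean with the SD. The strains do not overlap for the 3 probe sets of Serpina4-ps1, for Serpina11 and for Serpina10, and they overlap for the other 5 probe sets.

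Serpina11, a less studied member of the family, read 9.27, 10.27 and 10.19 in NZO livers, against 11.11, 11.30 and 11.17 in BKS livers. All NZO arrays lay below all BKS arrays, with a gap of 0.83, and NZO replicate 1 was the lowest. The means were 9.91 ± 0.55 in NZO and 11.19 ± 0.10 in BKS (SD, n = 3 each), a difference of -1.28 with a standard error of 0.33. Without NZO replicate 1 the difference was -0.96. NZO replicate 1 lay 0.96 below NZO replicates 2 and 3, and the median shift at this level was -0.98.

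Serpina10 is the protein Z-dependent protease inhibitor, which blocks coagulation factor Xa. It read 11.56, 12.57 and 12.34 in NZO livers, against 12.92, 12.83 and 12.62 in BKS livers. The strains did not overlap, but the gap was 0.05, and NZO replicate 1 lay well apart from the other 5 arrays. The means were 12.16 ± 0.53 in NZO and 12.79 ± 0.15 in BKS (SD, n = 3 each), a difference of -0.63 with a standard error of 0.32. Without NZO replicate 1 the difference was -0.33, and with both replicate 1 arrays left out it was -0.27. Its probe set, of a type designed on sequence shared by several transcripts, gave a difference larger in size than the median of -0.31 over 966 probe sets of like level.

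The 2 hormone carriers of the family had overlapping strains. Serpina6, corticosteroid-binding globulin, read 11.12, 12.18 and 11.90 in NZO livers and 11.92, 11.71 and 11.84 in BKS livers. The difference was -0.09 with a standard error of 0.32, smaller than the SD of 0.55 among the NZO arrays. It was 0.22 without NZO replicate 1.

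Serpina7, thyroxine-binding globulin, read 8.34, 9.56 and 9.61 in NZO livers and 10.30, 9.34 and 8.29 in BKS livers. Its SD was 0.72 in NZO and 1.00 in BKS, and the difference of -0.14 had a standard error of 0.71. NZO replicate 1 lay 1.24 below the mean of the other NZO arrays, and BKS replicate 1 lay 1.49 above that of the other BKS arrays. With both replicate 1 arrays left out the difference was 0.77, and between the replicate 1 arrays it was -1.96, so the direction rested on which arrays were used.

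Serpina3n is a secreted inhibitor related to human alpha-1-antichymotrypsin, known as an acute phase protein and as an inhibitor of granzyme B. It read 9.90, 11.90 and 11.44 in NZO livers and 11.48, 11.17 and 11.22 in BKS livers. NZO replicate 1 was the lowest array and NZO replicate 2 the highest, so the NZO values spanned the BKS values. The difference was -0.21 with a standard error of 0.61, and 0.38 without NZO replicate 1. NZO replicate 1 lay 1.77 below NZO replicates 2 and 3, against a median shift of -1.04 at this level.

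Serpina12, or vaspin, is a serpin described as an adipose hormone that inhibits kallikrein 7, and it had 2 probe sets of unlike brightness. Probe set 1421092_at read 11.53, 12.32 and 12.20 in NZO livers and 11.37, 12.34 and 12.44 in BKS livers, a difference of -0.03 with a standard error of 0.42. On this probe set both replicate 1 arrays were the lowest of their strain, by 0.73 in NZO and by 1.03 in BKS below the mean of the others. Probe set 1421091_at read 6.95, 6.47 and 6.34 in NZO livers and 6.95, 6.96 and 6.66 in BKS livers, a difference of -0.26 with a standard error of 0.21. On this one both replicate 1 arrays lay above the mean of the others, by 0.55 in NZO and by 0.14 in BKS, so the 2 probe sets of the gene did not follow each other. Their deviations from the strain means correlated at -0.69 over the 6 arrays, and at -0.26 over the 4 other than the replicate 1 arrays. The median shift of NZO replicate 1 was -1.05 at the level of 1421092_at and -0.18 at that of 1421091_at.

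**Figure D2:**
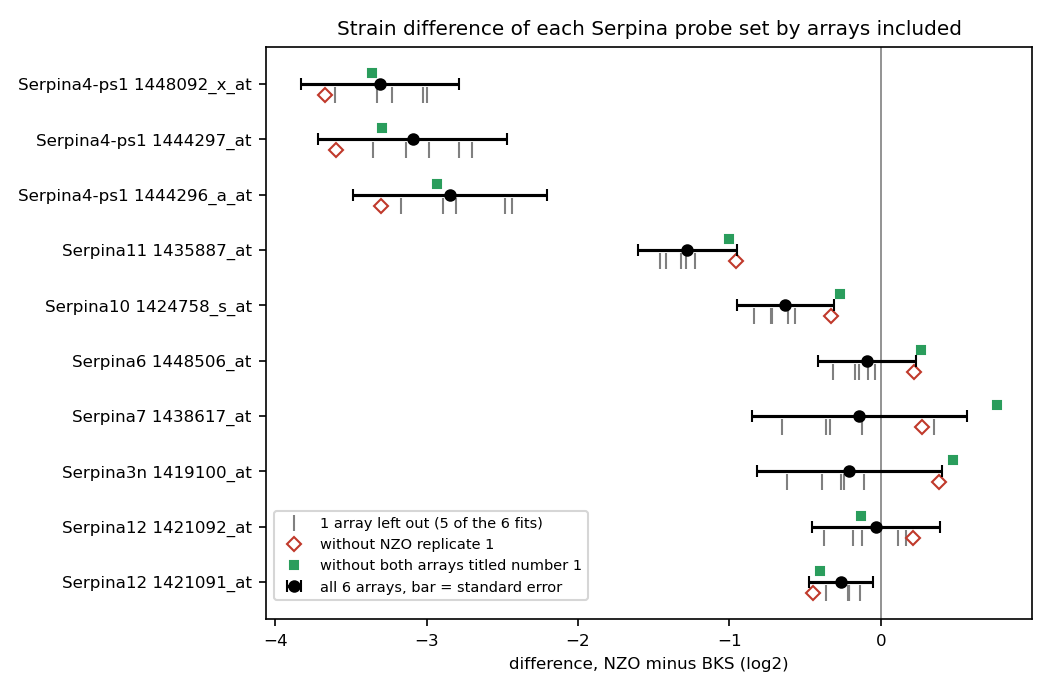
Difference NZO minus BKS on the log2 scale (horizontal axis) for each Serpina probe set. Black points are all 6 arrays with the standard error, grey ticks leave out 1 of 5 arrays in turn, open diamonds leave out NZO replicate 1, and green squares leave out both replicate 1 arrays. The 3 probe sets of Serpina4-ps1 stay between -3.67 and -2.44 with 1 array left out, and Serpina6, Serpina7, Serpina3n and 1421092_at of Serpina12 lie on both sides of 0.

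Over the 10 probe sets, 5 were lower in NZO without overlap, none was higher without overlap, and 5 overlapped. Of all 45037 probe sets tested, 8.49% were lower in NZO without overlap, and of the 4854 with a mean of at least 9 it was 18.1%. In the fit across all probe sets 1 of the 10 was called lower in NZO (1448092_x_at of Serpina4-ps1), where 0.424% of all probe sets were called in either direction and 0.233% as lower. Since the genes were chosen with these results known, nothing is read from these counts. All 10 differences were negative, with a median of -0.45 against 0.00123 over all probe sets, and the median difference over probe sets with a mean of at least 12 was -0.31. Taken relative to probe sets of like level, the differences were -2.63 to -3.05 for Serpina4-ps1, -0.96 for Serpina11, -0.32 for Serpina10 and -0.28 for 1421091_at of Serpina12. On the same scale they were 0.30 for 1421092_at of Serpina12, 0.24 for Serpina6, 0.12 for Serpina7 and 0.11 for Serpina3n. This rescaling was added after the data had been seen.

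**Figure D3:**
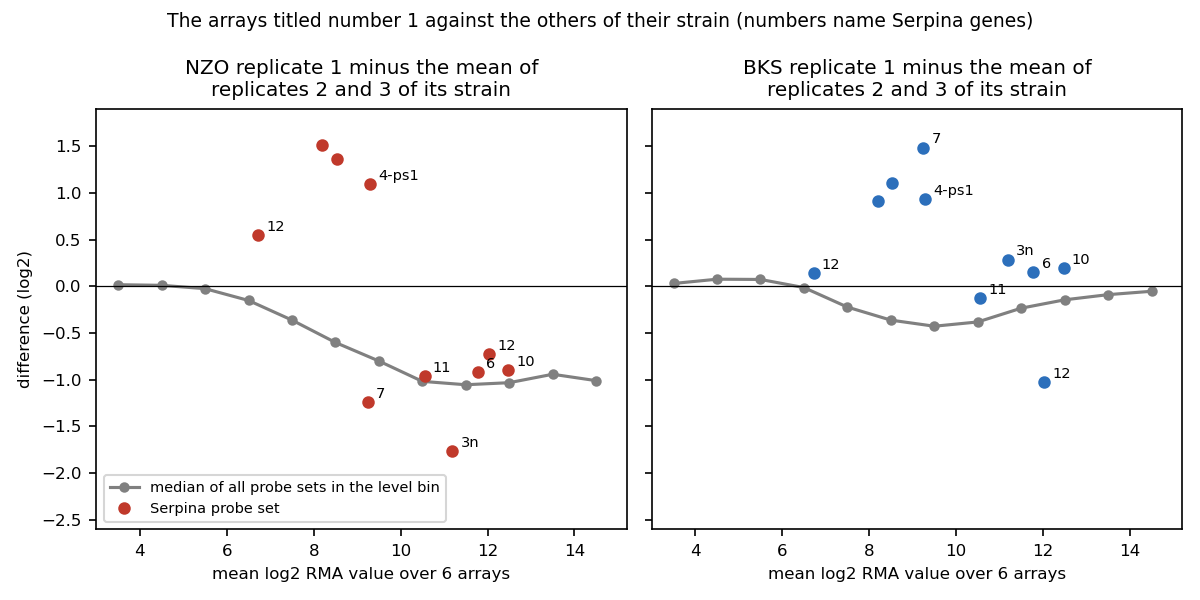
Replicate 1 of each strain minus the mean of replicates 2 and 3 (vertical axis, log2) against the mean level over 6 arrays (horizontal axis, log2). Grey lines are medians of all probe sets in bins of 1, and coloured points are the Serpina probe sets, NZO at left and BKS at right, with the 3 points of Serpina4-ps1 labelled once. The NZO line drops to about the level of Serpina11, at -0.96, and Serpina4-ps1 lies above 0 in both panels.

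The way the genes varied together within the strains rested largely on the replicate 1 arrays. After the strain means were removed, the deviations of Serpina3n, Serpina6, Serpina10 and Serpina11 correlated with each other at 0.92 to 0.99 over the 6 arrays. All 4 were lowest on NZO replicate 1, the array that was dim over bright probe sets. The part of that dimness in the correlations was not tested. The 3 probe sets of Serpina4-ps1 correlated with each other at 0.81 to 0.98, and negatively with those 4 genes, at -0.43 to -0.81. Serpina7 stood between them, with correlations from 0.53 with Serpina11 to 0.76 with Serpina10. With both replicate 1 arrays left out, the 4 genes correlated with each other at 0.14 to 0.97 and the probe sets of Serpina4-ps1 at -0.26 to 0.96. Between Serpina4-ps1 and the 4 genes the correlations then ran from -0.98 to 1.00, with 9 of 12 positive. Those of Serpina7 with the 4 genes then ran from -0.47 to 0.81, with 2 of 4 positive, so its place between them was not kept. Over all 45 pairs of probe sets the median was -0.05 with 22 positive over 6 arrays, and 0.46 with 33 positive over those 4. These are descriptions over 6 or 4 points that share arrays.

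By the likeness of their 6 values, the named genes nearest to Serpina4-ps1 among 9337 genes with a mean of at least 6 were Tmc5 (r = 0.997), Phykpl (0.984) and Txnrd3 (0.979). Those nearest to Serpina11 were Ppm1b (r = 1.000), Cacul1 (0.997) and the cytochrome P450 Cyp2c70 (0.997). Serpina3n and Serpina6 were among the 3 nearest to each other (r = 0.994), with Apon among the 3 nearest to both. Nearest to Serpina10 were Nme1, Itih4 and Pbrm1 (r = 0.995 to 0.998), to Serpina12 Aar2, Kdm4b and Hsbp1 (0.995 to 0.996), and to Serpina7 Egfr, Rab28 and Clic4 (0.972 to 0.980). As many as 381 genes correlated above 0.95 with Serpina11, 286 with Serpina10 and 205 with Serpina12. The counts were 107 for Serpina3n, 75 for Serpina6, 27 for Serpina4-ps1 and 7 for Serpina7, so such values over 6 arrays single out few patterns. The strain difference was not removed from these values, so likeness to Serpina4-ps1 or Serpina11 includes it.

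Along chromosome 12 the reference annotation lists 28 Serpina genes and pseudogenes, from Serpina10 to Serpina3n. Serpina11 and Serpina4-ps1, the 2 genes furthest apart between the strains, are separated there by Serpina9 and Serpina12. Serpina12, next to Serpina4-ps1, differed by -0.03 and -0.26, and Serpina5, on its other side, by -0.01 with means of 4.01 in NZO and 4.02 in BKS, among the dim probe sets of the array. Serpina10 and Serpina6, at one end of the cluster, differed by -0.63 and -0.09, and Serpina3n, at the other, by -0.21.

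**Figure D4:**
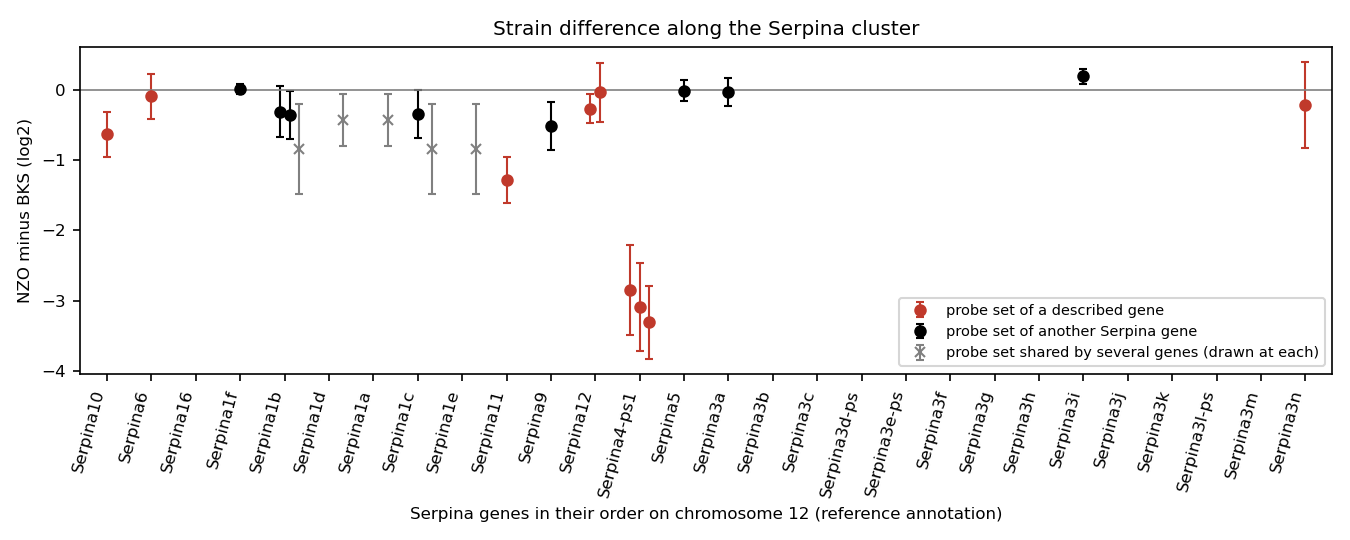
Difference NZO minus BKS (vertical axis, log2) for the Serpina probe sets in the order of the genes on chromosome 12 (horizontal axis). Red points are the genes described here, black points are other Serpina genes, grey crosses are probe sets shared by several genes, and bars are standard errors. Genes without a named probe set have no point, and the 3 points of Serpina4-ps1 lie below all others.

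The rest of the Serpina family was tested with limma, since it was not part of the chosen genes. None of 7 other Serpina genes with a probe set of their own passed, and the median difference was -0.02 against -0.03 over all 18193 genes, of which 0.566% were called. Of these 7, Serpina1f, Serpina5, Serpina3a and Serpina3i had means of only 3.83 to 5.02, below the median of every array (5.08 to 5.22). The list median is the value of Serpina3a, so it says little about the expressed genes of the list, Serpina1b, Serpina1c and Serpina9. The count in this list was also 0 at an unadjusted p under 0.05, with the arrays titled number 1 as a block and with a robust variance. The 2 with the smallest p were Serpina9, a serpin of germinal centre B cells (-0.51, standard error 0.34, adjusted p = 0.631), and Serpina3i (0.19, standard error 0.11, adjusted p = 0.733). The Serpina1 genes encode alpha-1-antitrypsin, the major elastase inhibitor of plasma, and probe set 1448680_at of Serpina1c read 13.87, 14.89 and 14.91 in NZO livers and 14.89, 14.88 and 14.92 in BKS livers. The 5 arrays other than NZO replicate 1 thus lay within a narrow band for Serpina1c. The difference was -0.34 for Serpina1c and -0.30 and -0.36 for Serpina1b, and -0.43 and -0.84 for 2 probe sets shared among Serpina1 genes, with adjusted p from 0.659 to 0.819 in limma.

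Among 17 measured serpins of other clades, 1 was called higher in NZO and none lower. It was Serpinb1a, an inhibitor of neutrophil elastase, which read 6.65, 7.34 and 6.55 in NZO livers against 4.64, 5.05 and 4.89 in BKS livers. The difference was 1.99 with a standard error of 0.28 (limma, adjusted p = 0.0289), and the strains did not overlap. The BKS values lay below the median of every array (5.08 to 5.22) and the mean over the 6 arrays was below 6, so no fold is given. Its second probe set gave 0.62 (adjusted p = 0.153 in limma) at a level below 5 in both strains. Serpinb1a was no longer called without BKS replicate 1, 2 or 3 (adjusted p = 0.0675, 0.162 and 0.155), without NZO replicate 3 (0.0992) or after centring each array on its median (0.0520), and its difference ran from 1.74 to 2.13 with 1 array left out.

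The ligands and partners of these serpins were followed through lists of genes. Of all 45037 probe sets, the fit with the block called 417 higher and 919 lower, against 86 and 105 without it. The share of all genes at an unadjusted p under 0.05, or called with the block, was not computed. Counts on these measures are therefore not read as results about a list. None of 20 proteases and cofactors known as partners of Serpina inhibitors was called in limma (median difference -0.17), 4 had an unadjusted p under 0.05, and 2 were called with the arrays titled number 1 as a block. The smallest p were those of plasma kallikrein, Klkb1 (-0.80, standard error 0.20, limma adjusted p = 0.197), and the elastase Cela1 (-1.08, standard error 0.52, adjusted p = 0.440). These were the 2 called with the block (adjusted p = 0.0368 for Klkb1 and 0.0270 for Cela1), and over all alternatives the adjusted p ran from 0.0368 to 0.664 for Klkb1 and from 0.0195 to 1 for Cela1. None of 17 genes of glucocorticoid signalling was called in limma (median -0.12), 6 had an unadjusted p under 0.05, and 4 were called with the block. The kinase Sgk1, which glucocorticoids induce, differed by 3.06 with a standard error of 0.68 (limma adjusted p = 0.0878), and the mineralocorticoid receptor Nr3c2 by -0.91 (adjusted p = 0.181). With the block these adjusted p were 0.0227 for Sgk1 and 0.0461 for Nr3c2, and over all alternatives they ran from 0.0145 to 0.359 and from 0.0291 to 0.667. None of 16 genes of thyroid hormone transport and response was called in limma (median -0.36), 6 had an unadjusted p under 0.05, and 2 were called with the block. The smallest p were those of Bcl3 (-1.29, limma adjusted p = 0.108, which the block brought to 0.0335 and the alternatives to between 0.0335 and 0.504) and the lipogenic enzyme Me1 (0.89, adjusted p = 0.195). Me1's second probe set gave 0.34 (adjusted p = 0.724 in limma).

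Of 28 genes of acute phase proteins and their interleukin 6 signalling, 2 were called lower in NZO and none higher. The list holds receptors and transcription factors beside acute phase proteins, the group to which Serpina3n belongs by function. In limma 8 had an unadjusted p under 0.05, and 3 were called with the arrays titled number 1 as a block. The interleukin 1 receptor Il1r1 read 8.34, 7.95 and 8.15 in NZO livers and 10.34, 10.26 and 10.07 in BKS livers, a difference of -2.08 with a standard error of 0.14 (limma, adjusted p = 0.00521). The call was lost when BKS replicate 2 was left out (adjusted p = 0.0671) or NZO replicate 3 was (0.0503), and its second probe set was dim in both strains (3.82 in NZO and 3.61 in BKS). The serum amyloid Saa3 had a mean of 7.75 ± 0.07 in NZO livers and 9.15 ± 0.16 in BKS livers (SD, n = 3 each), without overlap and with a difference of -1.40 with a standard error of 0.10 (limma, adjusted p = 0.0146). The call was lost with cyclic loess (adjusted p = 0.0555) and when any of 4 arrays was left out, replicates 2 and 3 of either strain (adjusted p = 0.0547 to 0.108). The median of the list was -0.69, with 26 members below 0, and it was -0.17 with both replicate 1 arrays left out.

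The 15 genes that lie near the Serpina cluster had none called in limma and a median of -0.23, with 2 at an unadjusted p under 0.05 and 1 called with the block. The smallest p were those of Asb2 (1.12, standard error 0.15, limma adjusted p = 0.0505, which the block brought to 0.0135 and the alternatives to between 0.0119 and 0.233) and Dicer1 (-0.79, adjusted p = 0.318, with -0.60 from its second probe set). Markers of other cell types that liver can hold gave no called gene in any of 9 lists in limma, with 8 of 74 measured markers at an unadjusted p under 0.05 and 1 called with the block. Mean levels of 10 Kupffer cell markers were 6.90, 7.79 and 7.43 in NZO and 7.64, 7.06 and 6.85 in BKS, and those of 10 endothelial markers were 6.76, 7.59 and 6.96 in NZO and 6.75, 6.65 and 6.52 in BKS. The endothelial mean was thus slightly higher on every NZO array. So was the mean of 7 cholangiocyte markers, at 5.64, 5.43 and 5.42 in NZO and 5.30, 5.36 and 5.31 in BKS, though 5 of these had a mean below 6. The part of either cell type in the Serpina differences was not tested.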

How the data were processed

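Liver RNA was measured on an array of 45101 probe sets. The authors deposited log2 RMA values, and the submitters' processing notes name Affymetrix Expression Console without a version. Replicates 1 to 3 are names in accession order. Nothing in the labels states that the arrays are separate animals, so p-values may reflect technical spread alone. The number of arrays limits the precision.

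The platform's gene table gave 34945 probe sets 1 symbol and 932 several, and symbols were updated through GRCm38.p6. The strains were compared with limma 3.58.1 (R 4.3.3, lmFit and eBayes, two-sided, no covariate) over 45037 probe sets, leaving out 64 controls, with Benjamini-Hochberg adjustment and calls below 0.05. Standard errors are unmoderated. Listed genes used their probe set of highest mean. Probe sets of like level have means within 1 of each other.

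The members, the 10 gene lists (208 entries, 175 different genes measured), the tests and the block of the arrays titled number 1, which the labels call no batch, were chosen with earlier results of these data known. The genes named are all members, the called genes of the serpin lists, up to 4 called genes of each other list by size of difference, the 2 with the smallest p where none was called, and the 3 genes most like each member. Alternatives changed the normalization, variance model, array weights, filter, probe set and arrays. The like-level rescaling and the TATA box were added after the data had been seen. In simulated data of the same size, 91% of changes of 2 and 100% of changes of 4 (log2) were recovered, with 11 false calls among 202. The simulated noise was independent for each probe set and held no shift shared across an array, such as that of NZO replicate 1. These shares therefore check the code and do not measure the recovery in the real arrays. Plots used matplotlib 3.10.9.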

Additional observations from a re-analysis of the deposited data

How the results depend on the processing

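Over all probe sets, 86 were called higher and 105 lower in NZO. The counts were 320 and 284 with repeated quantile normalization, 320 and 264 with cyclic loess, 417 and 919 with the arrays titled number 1 as a block, 623 and 569 among 2 against 2 arrays without those titled number 1, 180 and 193 with a trended, robust variance, and 319 and 510 with array weights. With 1 array left out they ran from 14 to 165 higher and from 12 to 107 lower. Of 175 listed genes, 3 were called higher and 4 lower. The higher count was 7 with repeated quantile normalization, 8 with cyclic loess, 1 with median centring, 8 with the block, 10 among 2 against 2 arrays, 6 with the robust variance and 7 with array weights. The lower count was 18 with the block, 11 among 2 against 2 arrays, 12 with array weights and 7 over probe sets with a mean of at least 6. With 1 array left out they ran from 0 to 5 higher and from 0 to 5 lower. The count of Serpina probe sets lower without overlap, 5 in all, ran from 4 (cyclic loess) to 7 (2 against 2 arrays). The differences of Serpina4-ps1, Serpina10, Serpina11 and 1421091_at of Serpina12 were negative under all 12 alternatives run for them. Those of 1421092_at, Serpina3n, Serpina6 and Serpina7 were negative under 6, 7, 7 and 6 of 12. The block leaves each difference unchanged. No paired analysis was possible because the titles share only number 1 between the strains. Low signal limits both probe sets of Serpinb1a and that of Serpina3i, which the minimum mean of 6 leaves out. It also limits Serpina1f, Serpina3a, Serpina5 and the second probe sets of Il1r1 and Acot4.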

Other observations

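Of 23 measured genes of growth hormone signalling and sex-biased liver expression, 1 was called higher in NZO, the acyl-CoA thioesterase Acot4 (difference 2.17, standard error 0.20, limma adjusted p = 0.0114), and none lower. At an unadjusted p under 0.05 there were 11, and 7 were called with the arrays titled number 1 as a block and 4 with the robust variance. Acot4 was not called without BKS replicate 2 or 3 or NZO replicate 3 (adjusted p = 0.107, 0.0869 and 0.0591), and its second probe set gave 0.81 (adjusted p = 0.466). The list median was -0.50, and -0.34 with both replicate 1 arrays left out. Of 19 interferon gamma genes, 1 was called higher, the guanylate-binding protein Gbp7 (1.76, standard error 0.27, limma adjusted p = 0.0400), and 1 lower, the MHC class I regulator Nlrc5 (-1.49, standard error 0.19, adjusted p = 0.0313). Gbp7 was called with 1 array left out only where that array was NZO replicate 1, and Nlrc5 only where it was NZO replicate 2. The second probe set of Gbp7 gave 1.01 (adjusted p = 0.171 in limma), and Gbp7 was also not called after median centring (0.0522).

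Of 18 hepatocyte transcription factors, 1 was called lower in NZO, the pioneer factor Foxa1, and none higher (list median -0.49, and -0.21 with both replicate 1 arrays left out), and 3 were called with the block. In the interferon gamma list 3 were called with the block. Foxa1 read 8.52, 8.03 and 8.13 in NZO livers and 10.07, 10.77 and 9.93 in BKS livers, a difference of -2.03 with a standard error of 0.30 (limma, adjusted p = 0.0316). The call was lost after repeated quantile normalization (0.0675 as adjusted p) and after cyclic loess (0.0746), and when any array other than NZO replicate 1 was left out (0.0642 to 0.165). These lists were chosen with earlier results of these data known, so their counts are not read further. In the main fit 0.566% of all genes were called, and no such share was computed for the block or an unadjusted p.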
